A study of Mus musculus with 12 samples.

Results

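AKR-2B is an established mouse fibroblast line that forms colonies in soft agar, a culture in which cells grow without a surface to attach to. Here its mature microRNAs (miRNAs) were compared after 8 days in soft agar with 25 ng/mL of the cytokine TGFβ against 8 days with vehicle. Each condition was 1 library, so the comparison is between 2 libraries and not between replicated conditions. No genotype, transgene or other agent differed between them by the labels, and both were cells of the same line recovered from the agar as a whole. Growth of the 2 cultures in the agar was not compared here. Companion pairs at day 2 and day 4, made the same way with 1 library each, are set beside day 8 below. Of 1281 mature miRNAs in the deposited count table, 614 had a read in at least 1 of the day 8 libraries. The 361 with a mean of at least 10 CPM (the library's reads scaled to a common total) over both libraries were taken as measured, and they held 99.9% of the reads of each library.

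A miRNA is cut from a hairpin precursor that yields a mature strand from each side, named 5p and 3p. Loaded into an Argonaute protein, it pairs with messenger RNAs mainly through bases 2 to 8, the seed, and lowers their stability or translation, so miRNAs with the same seed share many predicted targets. TGFβ binds a pair of receptor kinases that phosphorylate Smad proteins. It drives fibroblasts towards matrix production and lets AKR-2B cells grow in soft agar, and Smads are known both to change transcription of miRNA genes and to promote the processing of some precursors, miR-21 among them.

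The sequences below carry the main results. Mature sequences are from RefSeq's annotation of GRCm38.p6, in which 277 of the 361 measured miRNAs had an entry, and are written 5′ to 3′ with the seed in capitals. The first set holds miRNAs with high ratios of TGFβ over vehicle, among them the 3 members of 1 cluster whose seeds differ from one another.
miR-455-3p: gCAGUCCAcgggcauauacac
miR-455-5p: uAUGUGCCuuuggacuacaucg
miR-182-5p: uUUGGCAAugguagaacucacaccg
miR-183-5p: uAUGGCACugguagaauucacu
miR-96-5p: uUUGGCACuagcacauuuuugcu
miR-155-5p: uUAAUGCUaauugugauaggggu
miR-224-5p: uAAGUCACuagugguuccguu
miR-206-3p: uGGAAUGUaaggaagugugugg
miR-199a-5p: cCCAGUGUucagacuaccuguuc
miR-21a-5p: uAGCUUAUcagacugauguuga
miR-214-3p: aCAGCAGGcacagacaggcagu

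The next set shows miRNAs that share a seed. In the miR-17 seed all 4 measured members were higher, in the let-7 seed all ratios were below 1, and in the last 4 seeds the members differed in their calls.
miR-17-5p: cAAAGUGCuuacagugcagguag
miR-93-5p: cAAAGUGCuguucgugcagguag
let-7b-5p: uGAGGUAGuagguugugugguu
let-7i-5p: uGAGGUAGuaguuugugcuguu
let-7a-5p: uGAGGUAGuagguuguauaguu
miR-146a-5p: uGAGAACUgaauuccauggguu
miR-146b-5p: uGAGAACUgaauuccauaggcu
miR-25-3p: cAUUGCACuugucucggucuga
miR-92a-3p: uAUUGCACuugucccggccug
miR-92b-3p: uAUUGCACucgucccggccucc
miR-16-5p: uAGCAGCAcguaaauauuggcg
miR-322-5p: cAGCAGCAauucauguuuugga
miR-125b-5p: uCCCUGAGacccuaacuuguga
miR-351-5p: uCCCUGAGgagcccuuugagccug

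The last set holds miRNAs with low ratios, and both arms of a precursor whose strands differed in their calls.
miR-1224-5p: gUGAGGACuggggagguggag
miR-129-5p: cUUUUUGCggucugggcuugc
miR-1249-3p: aCGCCCUUcccccccuucuuca
miR-193b-5p: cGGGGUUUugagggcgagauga
miR-193b-3p: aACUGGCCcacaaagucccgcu

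The vehicle library held 414943 miRNA reads and the TGFβ library 1387785, which is 3.34 times as many and makes this the deepest pair of the series. Counts were scaled to CPM with trimmed mean of M values (TMM) factors. On that scale 1 read was worth 2.20 CPM in the vehicle library and 0.830 CPM in the TGFβ library, and a count of 0 allowed a level of up to 6.60 CPM and 2.49 CPM (3 reads). Each ratio below is TGFβ over vehicle in scaled reads, followed by an exact 95% interval that covers counting error only. The log2 ratio adds a prior count of 2 and is therefore drawn towards 0 for miRNAs with few reads. A miRNA was called higher or lower when its log2 ratio passed 1 or -1 and the interval left out 1. With no replicate, neither call says how far 2 cultures of the same condition would differ.

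The TGFβ library differed from the vehicle library in many miRNAs, with higher and lower ones in similar number. Among abundant miRNAs, miR-21a-5p, miR-214-3p, miR-181a-5p and miR-199a-5p were higher, while others such as miR-125b-5p and miR-143-3p were not called. Lower ones included let-7b-5p, miR-129-5p and miR-146b-5p. Of the 361 measured miRNAs, 72 were called higher (19.9%) and 77 lower (21.3%), and 212 were neither. The median log2 ratio was 0.01, with quartiles at -0.86 and 0.79. At a 4-fold difference 21 were higher and 18 lower. When CPM was set on total reads without TMM, every ratio moved down by 0.34 on the log2 scale and the split became 52 higher and 101 lower, where the 52 were all among the 72 and the 101 held all 77. For 4 pairs of measured miRNAs, such as miR-466e-3p and miR-466p-3p, the reads were identical in all 6 libraries, and counting each pair once gave 72 higher and 74 lower of 357. That count does not merge entries with the same sequence but unequal reads, such as miR-199a-3p and miR-199b-3p.

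**Figure D1:**
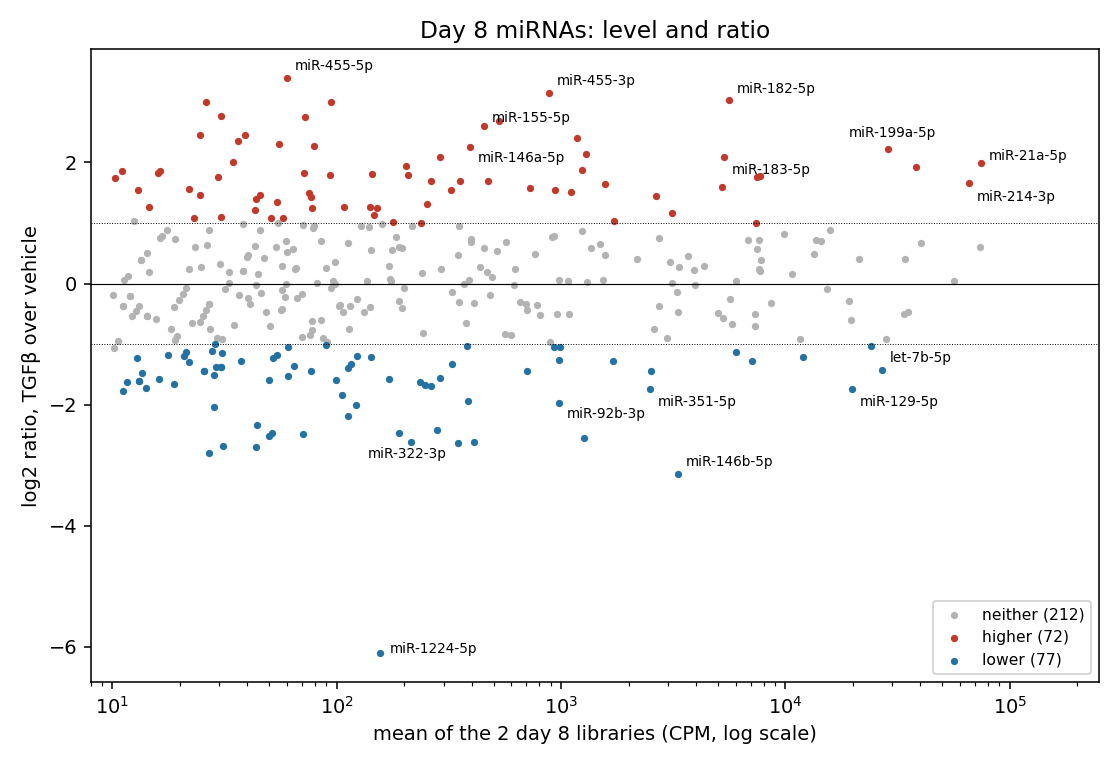
Mean level of each of the 361 measured miRNAs over both day 8 libraries (CPM, log axis) against its log2 ratio of TGFβ over vehicle; 1 point is 1 miRNA, 72 called higher in red, 77 called lower in blue and 212 neither in grey, with dotted lines at 1 and -1. Calls lie at all levels, and miR-21a-5p, miR-214-3p and miR-199a-5p stand at the abundant end with ratios above 1.

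The miRNAs called higher held 12.7% of the vehicle reads and 36.5% of the TGFβ reads, while those called lower held 18.8% and 5.60%. In the vehicle library miR-99b-5p led with 6.40% of reads, followed by miR-125b-5p with 6.10% and miR-125a-5p with 4.50%. The let-7 members let-7b-5p, let-7i-5p and let-7c-5p stood among its 10 most abundant. In the TGFβ library miR-21a-5p led with 10.3%, ahead of miR-214-3p with 8.65% and miR-99b-5p with 7.68%. No let-7 member was in the top 10 there, and 6 of the 10 were shared between the libraries. The 10 most abundant took 43.4% of the vehicle reads and 53.6% of the TGFβ reads.

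miR-21a-5p, whose precursor lies in an exon of Vmp1 and which is widely known as a TGFβ-responsive miRNA of fibroblasts, had 13696 reads with vehicle (30127 CPM) and 143585 with TGFβ (119204 CPM). Its ratio was 3.96 (3.89 to 4.03). The passenger strand miR-21a-3p had 2 and 33 reads, a ratio of 6.23 with a wide interval (1.59 to 53.6). Both arms were thus higher with TGFβ, the first with far tighter counting error.

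The highest log2 ratios belonged to the arms of miR-455, a miRNA studied mainly in cartilage whose precursor sits in an intron of the collagen gene Col27a1 (chr4:63256851-63256932, plus strand, GRCm38). miR-455-3p had 80 reads with vehicle and 1920 with TGFβ, a ratio of 9.06 (7.24 to 11.5). miR-455-5p had 3 and 136 reads, a ratio of 17.1 (5.73 to 84.0). By contrast miR-140, the other miRNA known from cartilage, was not called: miR-140-3p had 29432 CPM with vehicle and 38867 CPM with TGFβ, a ratio of 1.32.

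All 4 measured members of the miR-182, miR-96 and miR-183 cluster (chr6:30165918-30169737, minus strand) were higher, against 19.9% of all measured miRNAs. These miRNAs are best known from sensory cells. miR-182-5p had 556 reads with vehicle and 12033 with TGFβ, or 1223 and 9989.7 CPM, a ratio of 8.17 (7.50 to 8.91). miR-183-5p went from 2022 to 8651 CPM and miR-96-5p from 81.4 to 326 CPM, with ratios of 4.28 and 4.01. Summed over the 4 members, the reads were 1516 and 22930, a ratio of 5.71 (5.42 to 6.02).

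miR-224-5p, from an intron of Gabre on the X chromosome, had 63 and 1109 reads and a ratio of 6.64 (5.15 to 8.71). miR-155-5p, an inflammation-linked miRNA from an exon of its host transcript Mir155hg, had 57 and 941 reads, a ratio of 6.23 (4.77 to 8.29). For miR-206-3p, a miRNA of skeletal muscle, 7 reads were counted with vehicle and 156 with TGFβ, a ratio of 8.41 (3.99 to 21.3). It was the lone striated muscle miRNA measured: of the other 5 looked at, 4 had no read in either library and miR-133a-3p had 2 reads with TGFβ.

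The miR-199 and miR-214 group, transcribed in part from Dnm3os, the long noncoding RNA antisense to Dnm3 (chr1:162217814-162223477), had 4 of its 6 measured mature miRNAs higher, against 19.9% of all, and none lower. miR-214-3p had 14337 and 119994 reads, a ratio of 3.16 (3.10 to 3.21). miR-199a-5p had 4588 and 56975 reads, a ratio of 4.69 (4.55 to 4.83). The 2 members below the threshold were miR-199a-3p and miR-199b-3p, with ratios of 1.64 and 1.64. Their mature sequences are the same, so these 2 entries are not separate measurements. Summed, this group had 58307 CPM with vehicle and 175967 CPM with TGFβ.

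In the miR-181 family, known from lymphocyte development, 5 of 7 measured members were higher, where 19.9% of all measured miRNAs were, and none lower. miR-181a-5p made up most of it, with 15820.1 CPM in the vehicle library and 60352 CPM in the TGFβ library, a ratio of 3.81 (3.72 to 3.91). miR-181d-5p, with a ratio of 1.53 (1.17 to 2.01), was not called. miR-181a-2-3p passed 2-fold but its interval reached below 1.

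The miR-17-92 cluster and its paralogs, which promote cell cycle entry and are often called oncomirs, had 12 of 14 measured members higher, against 19.9% of all measured miRNAs, and none lower. All 6 measured miRNAs of the miR-25, miR-93 and miR-106b cluster (chr5:138165321-138165818), which overlaps the replication gene Mcm7, were higher, from 2.25 for miR-25-3p to 5.28 for miR-93-3p. On total-count scaling miR-25-3p was not called. The other two in the list, miR-92a-3p and miR-19b-3p, had ratios of 1.85 (1.79 to 1.91) and 1.41 (0.786 to 2.68). miR-92a-3p is the most abundant of the list, so the summed ratio of 2.07 (2.02 to 2.13) was below the ratio of most members.

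Some miRNAs known as repressors of matrix or growth genes were also higher. miR-29a-3p, which targets collagen messages, had 1547 and 13844 reads, a ratio of 3.38 (3.20 to 3.56). miR-29b-3p had 3 and 27 reads, and was not called on total-count scaling. miR-22-3p had 3502 and 11961 CPM, a ratio of 3.42 (3.24 to 3.60). In the miR-34 family, effectors of p53, 2 of 5 measured members were called higher, against 19.9% of all measured miRNAs. They were miR-34a-5p with a ratio of 2.53 and miR-34c-5p with 2.04, and on total-count scaling neither was called.

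A further group on the X chromosome, the miR-500, miR-501, miR-362, miR-188 and miR-532 cluster (chrX:7237683-7248497), was singled out after its values were seen. Of its 7 measured miRNAs 6 were higher, against 19.9% of all measured miRNAs. Of the 6, miR-188-5p and miR-362-5p were not called on total-count scaling. miR-532-5p had 650 reads with vehicle and 4683 with TGFβ, a ratio of 2.72 (2.50 to 2.96). The exception was miR-501-3p, with 588 and 1594 reads and a ratio of 1.02 (0.930 to 1.13), while its partner miR-501-5p had a ratio of 3.96 on 4 and 42 reads.

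Many abundant fibroblast miRNAs differed little. miR-125b-5p had 55665 and 57217 CPM, a ratio of 1.03 (1.01 to 1.04). None of 9 measured members of the miR-99, miR-100 and miR-125 families was called, where 58.7% of all measured miRNAs were not. Among the 9, miR-99b-5p had a ratio of 1.51. In the miR-23, miR-27 and miR-24 clusters 9 of 10 were not called, the exception being miR-27a-5p with 217 and 2544 reads. Of the miR-30 family 9 of 10 were not called. In the miR-143 and miR-145 cluster, marks of smooth muscle and fibroblasts, none of the 4 was called. The ratios were 0.661 for miR-143-3p and 1.17 for miR-145a-5p.

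**Figure D2:**
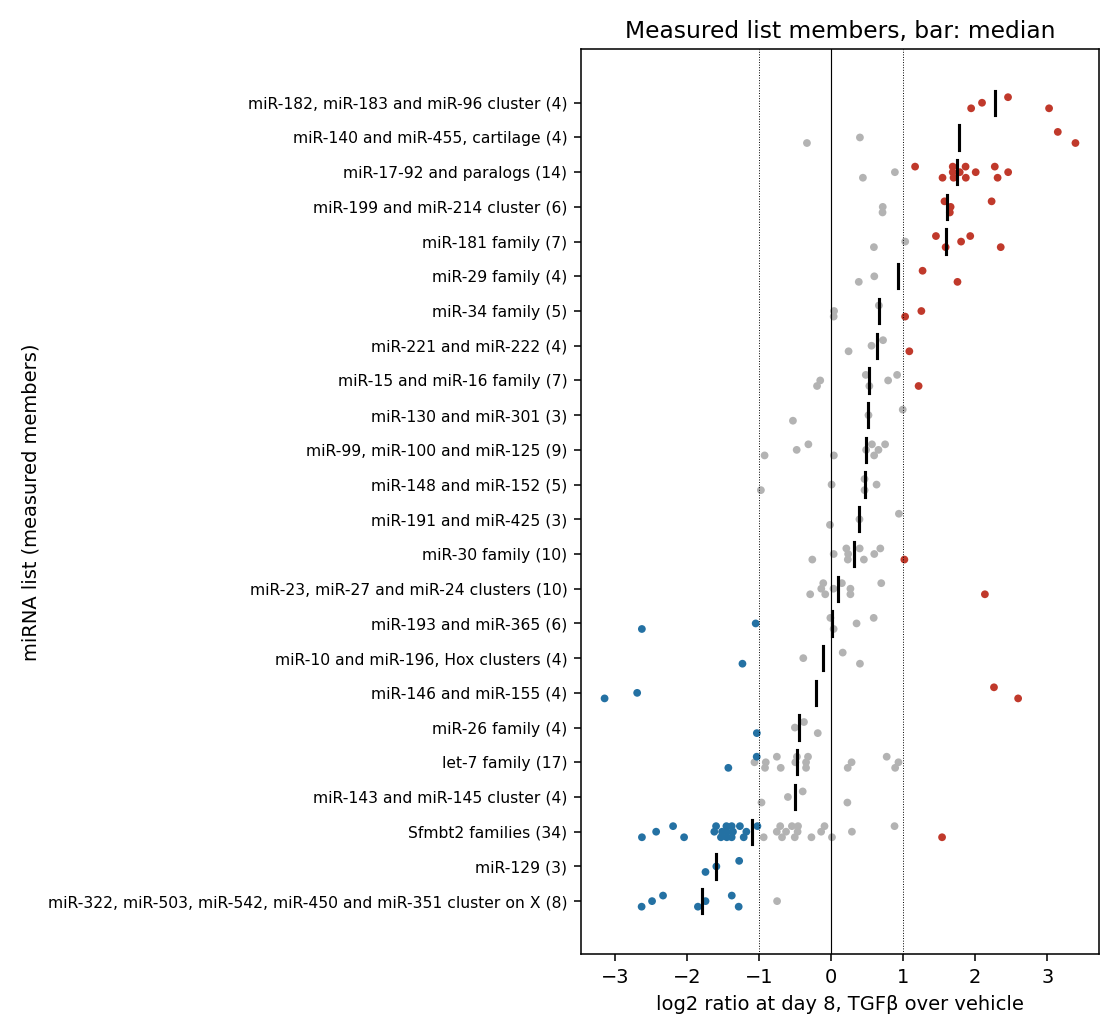
Log2 ratio of each measured member (points) of the miRNA lists with at least 3 measured members, ordered by their median (black bar); red is called higher, blue lower, grey neither, and the number of measured members is in brackets. The miR-182, miR-17-92, miR-199 with miR-214, and miR-181 lists lie mostly above 1, and the Sfmbt2, miR-129 and miR-322 lists mostly below -1.

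Among the decreases, miR-1224-5p was the extreme. It had 142 reads with vehicle (312 CPM) and none with TGFβ, and at the limit of 3 reads it was at least 125-fold lower. Its precursor lies in an intron of Vwa5b2 (chr16:20604452-20604536). miR-146b-5p, a feedback inhibitor of inflammatory signalling, had 2720 reads with vehicle and 812 with TGFβ, 5983 and 674 CPM, which was 8.88-fold lower. Its ratio was 0.113 (0.104 to 0.122). miR-1249-3p had 983 and 442 reads, 5.89-fold lower.

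The X-linked cluster of miR-322, miR-503, miR-351 and miR-450 (chrX:53047997-53054349, minus strand), known from myogenic differentiation and cell cycle exit, had 7 of 8 measured members lower and none higher, against 21.3% lower among all measured miRNAs. miR-351-5p, its most abundant member, had 1743 and 1378 reads, a ratio of 0.298 (0.278 to 0.320). miR-322-3p had 272 and 112 reads, 6.43-fold lower. The member not called, miR-450b-3p, had 16 and 23 reads and a ratio of 0.543 (0.274 to 1.10). Summed over the 8, the reads were 2243 and 1642, which was 3.62-fold lower (ratio 0.276, 0.259 to 0.295).

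All 3 mature miRNAs of the miR-129 precursors, best known from neurons, were lower, against 21.3% of all measured miRNAs. miR-129-5p, made from both precursors, had 30371 CPM with vehicle and 9082 CPM with TGFβ, a ratio of 0.299 (0.292 to 0.307). miR-129-2-3p had 4585 and 5020 reads and a ratio of 0.413. miR-218-5p was 2.72-fold lower, with 1676 and 1635 reads, and miR-744-5p 2.31-fold lower, with 16731 and 7248 CPM.

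The rodent families with the names miR-466, miR-669, miR-467 and miR-297, most of whose copies lie in an intron of Sfmbt2, had 34 measured members, 18 lower and 1 higher. Over all measured miRNAs 21.3% were lower and 19.9% higher. Of the 34 members, 30 were located in that intron, 16 lower and 1 higher, and miR-466i lies on chromosome 13 outside it. Their reads are hard to assign, since near-identical copies can share them. The calls lay mostly with the 3p strand: 16 of 19 measured 3p miRNAs were lower and none higher, against 1 lower and 1 higher of 14 5p miRNAs. Summed, the 3p miRNAs had 2241 and 1913 reads, 3.10-fold lower (ratio 0.322, 0.303 to 0.343), and the 5p miRNAs 1017 and 2148 reads, 1.25-fold lower (ratio 0.797, 0.739 to 0.860). Within the intron alone 14 of 17 3p and 1 of 12 5p miRNAs were lower, with summed ratios of 0.319 and 0.805. For miR-467a the 3p strand had 216 and 102 reads and the 5p strand 155 and 373, with ratios of 0.178 and 0.908.

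The let-7 seed, carried by miRNAs that restrain growth genes and mark differentiated cells, held a smaller share of the TGFβ library. Its 9 measured members had 15.3% of the vehicle reads and 6.26% of the TGFβ reads. All 9 log2 ratios were below 0, from -1.42 to -0.32, and let-7b-5p and let-7c-5p were called lower, where 21.3% of all measured miRNAs were. let-7b-5p had 17843 and 17613 reads, nearly equal numbers from libraries of unequal depth, and 39249 and 14622 CPM. let-7i-5p had a ratio of 0.530 (0.520 to 0.541) and let-7a-5p one of 0.802 (0.773 to 0.831). Summed, the seed was 1.94-fold lower. Total-count scaling moves every log2 ratio down by 0.34 and adds lower calls among all measured miRNAs. With it 7 of the 17 measured let-7 miRNAs of both arms were called lower in place of 2. With TMM over all listed miRNAs 1 was lower and 1 higher, let-7c-5p having a log2 ratio of -0.94. let-7 members that differ at few bases, such as let-7a-5p and let-7b-5p with 2 differences, can exchange reads in alignment.

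Because miRNAs with 1 seed share predicted targets, levels were also summed per seed. The 277 miRNAs with a sequence carried 226 seeds, of which 31 had at least 2 measured members. In 2 of the 31, called members went opposite ways. The first was the miR-146 seed, GAGAACU. miR-146a-5p had 60 and 783 reads, a ratio of 4.93 (3.79 to 6.52), while miR-146b-5p was lower as given above. The 2 sequences differ at 2 positions, the first being 18 from the 5′ end, and their genes lie on chromosomes 11 and 19. With vehicle miR-146b-5p was the more abundant by far, at 5983 against 132 CPM, and with TGFβ they were close, at 650.0 CPM for miR-146a-5p and 674 CPM for miR-146b-5p. The sum was 4.62-fold lower with TGFβ (ratio 0.217, 0.203 to 0.230).

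The other was the miR-25 and miR-92 seed, AUUGCAC. miR-25-3p was higher, with a ratio of 2.25, though not called on total-count scaling, and miR-92b-3p was 3.94-fold lower, with 710 and 477 reads. miR-92a-3p, the most abundant, carried the sum, which was 1.73 times as high with TGFβ (1.68 to 1.78). In the AGCAGCA seed miR-322-5p was lower with 35 and 14 reads, but miR-15b-5p, miR-16-5p and miR-195a-5p were not called and the sum had a ratio of 1.32 (1.20 to 1.45). In the CCCUGAG seed miR-351-5p was lower while miR-125a-5p and miR-125b-5p, with far more reads, gave a summed ratio of 0.874 (0.864 to 0.883).

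For 2 other seeds the members moved together, where 19.9% of all measured miRNAs were higher. All 4 measured members of AAAGUGC, miR-17-5p, miR-20a-5p, miR-93-5p and miR-106b-5p, were higher, with log2 ratios from 1.69 to 1.87 and a summed ratio of 3.52 (3.19 to 3.89). In the miR-181 seed, ACAUUCA, 3 of 4 were higher and the sum had a ratio of 3.69 (3.60 to 3.77).

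**Figure D3:**
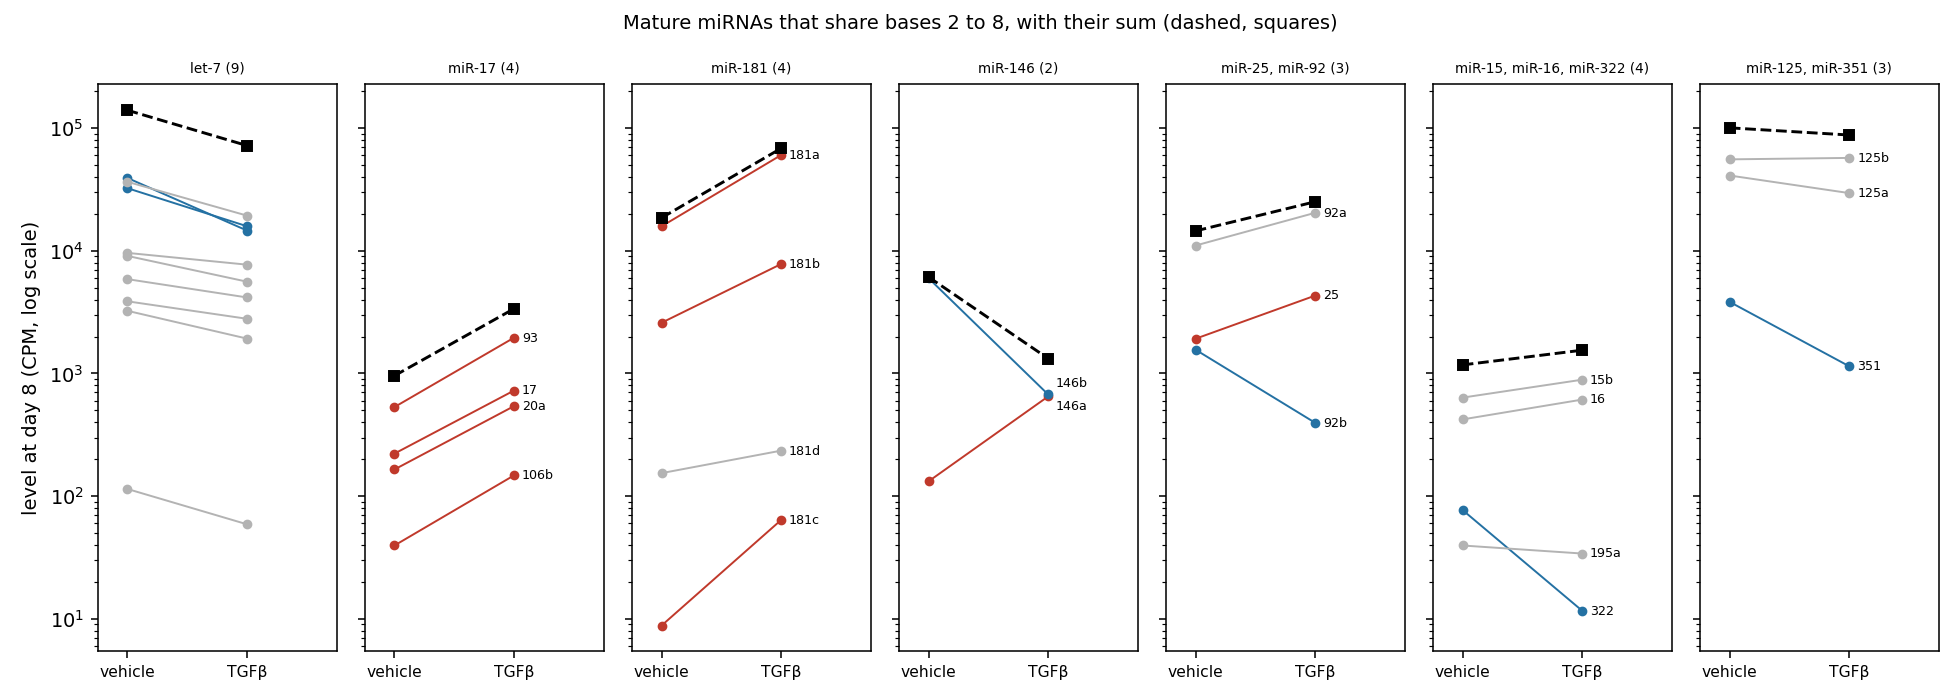
Level of each mature miRNA (CPM, log axis) in the vehicle and the TGFβ library at day 8, by shared seed, with red for called higher, blue lower, grey neither, and the sum of the seed as black squares on a dashed line. The let-7 and miR-146 sums slope down, the miR-17 and miR-181 sums slope up, and the 2 miR-146 members cross from far apart to nearly the same level.

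Both arms were measured for 93 precursors. Their log2 ratios had a Pearson correlation of 0.66 and a Spearman correlation of 0.63 across precursors, which share both libraries and are not independent. The arms were both higher for 16 precursors and both lower for 9, 1 arm alone was called for 30, and none had arms called opposite ways. The median absolute difference between arms was 0.67. The largest was in miR-193b, where the 5p arm had 169 and 68 reads and was 6.59-fold lower, and the 3p arm had 1226 and 4155 reads and a ratio of 1.28. The 5p share of its reads was 12.1% (Wilson 95% interval 10.5 to 13.9) with vehicle and 1.61% (1.27 to 2.04) with TGFβ.

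miR-345 went the other way, its 5p share being 13.3% (6.91 to 24.2) of 60 reads with vehicle and 50.1% (45.3 to 54.9) with TGFβ. For miR-27a the 5p share was 13.5% (12.0 to 15.3) and 36.5% (35.4 to 37.7), and for miR-199a 49.3% (48.3 to 50.3) and 73.5% (73.2 to 73.8). However, miR-199a-3p and miR-199b-3p have the same mature sequence, so their reads cannot be assigned to a precursor. The miR-199a share depends on how those reads were split. The intervals of these shares cover counting error only, and reads without molecular tags are not independent molecules.

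**Figure D4:**
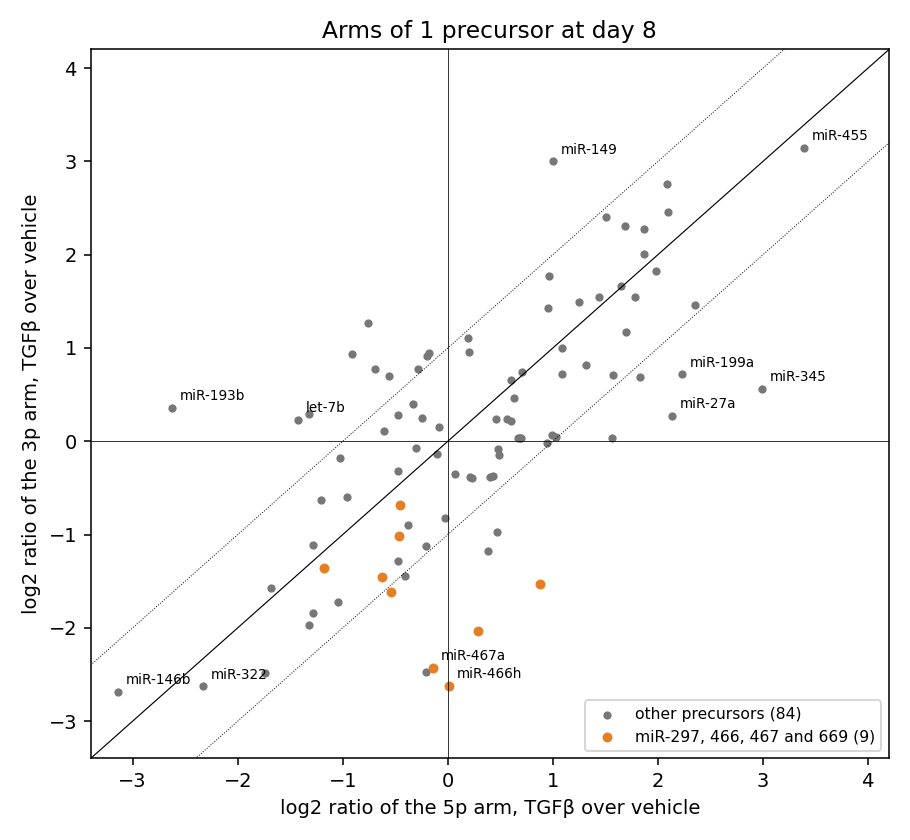
Log2 ratio of the 5p arm against that of the 3p arm for 93 precursors with both arms measured, with a solid line at equality and dotted lines 1 apart; orange points are 9 precursors of the Sfmbt2 families. The orange points lie below the line of equality, miR-193b lies far above it, and miR-345, miR-27a and miR-199a lie below it.

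Precursors were located in GENCODE M21 for 344 of the measured miRNAs. Those within 10 kb of each other formed 33 clusters, and members were called in opposite directions in 1 of them, the Sfmbt2 cluster, with 1 miRNA higher and 16 lower of 30 measured there. Neighbouring miRNAs can come from 1 transcript, so they are not separate observations.

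The authors' deposited table of day 8 messenger RNA ratios lists 998 genes with as many above 1 as below. Its header does not name the direction of the ratio. Known TGFβ targets in it do not settle the direction: Ctgf and Acta2 are both known as TGFβ-induced genes, and Ctgf has a ratio of 8.52 while Acta2 is 16.8-fold below 1. Id1 and Id3, genes of the BMP pathway, are 13.6-fold and 8.32-fold below 1. Host and miRNA values are therefore given side by side, and whether a host went the same way as its miRNA is not stated. Among the genes of the authors' deposited table, 6 hold a measured miRNA. Col27a1, host of miR-455, has a ratio of 7.45, and both arms of miR-455 were higher. Vwa5b2, host of miR-1224-5p, is 15.4-fold below 1 in the authors' deposited table, and miR-1224-5p had no read with TGFβ. Rnf144a, host of miR-6538, is 13-fold below 1 there, and miR-6538 had 23 and 4 reads.

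For the remaining 3 hosts the calls were mixed or absent. The noncoding RNAs A230057D06Rik and A330076H08Rik, listed 24.7-fold and 23.3-fold below 1 in the authors' deposited table, hold miR-344 precursors. Of the miRNAs from these, miR-344b-3p was lower, just past the threshold, and miR-344-3p and miR-344d-3p were not called. miR-344d-3p also has precursors outside both genes. AI854517, the host of miR-9-3, has a ratio of 5 in the authors' deposited table, and miR-9-5p, which has other precursors too, had 164 and 659 reads, a ratio of 1.52.

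Of the miRNAs called at day 8, most of the higher ones, but not most of the lower ones, were called alike at day 4. Few of either were at day 2. At day 4, 17.8% of 366 measured miRNAs were called higher and 13.4% lower by the same rule, and at day 2, 6.63% of 362 higher and 6.63% lower. Of the 72 miRNAs higher at day 8, 71 were measured at day 4, where 47 were higher and none lower, and 65 at day 2, where 6 were higher and 2 lower. Of the 77 lower at day 8, 75 were measured at day 4, where 35 were lower and none higher, and 70 at day 2, where 10 were lower and 2 higher. Across miRNAs measured on both days, the log2 ratios had a Pearson correlation of 0.76 between days 8 and 4 (345 miRNAs) and 0.19 between days 8 and 2 (332 miRNAs). The days differ in depth: the day 2 libraries held 108716 and 178877 reads and the day 4 libraries 232107 and 459795, and the part of depth in the smaller number of calls at day 2 was not tested.

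Called higher on all 3 days were both arms of miR-455, miR-21a-5p, miR-224-5p, miR-206-3p and miR-25-5p. miR-21a-5p, for one, had log2 ratios of 1.64, 2.10 and 1.98 in the order of the days. Lower on all 3 days were miR-1224-5p, miR-344b-3p and both arms of miR-92b. At day 8 miR-344b-3p lay at the threshold, with a log2 ratio of -1.00 on 18 and 21 reads, and was not called with DESeq2 size factors or with TMM over all listed miRNAs. miR-92b-3p had log2 ratios of -2.36, -1.85 and -1.97 in that order. miR-146b-5p, with 0.04 at day 2, stood at -3.34 at day 4 and -3.14 at day 8.

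Some differences were larger at day 8 than at day 4. The miR-182 cluster had a summed ratio of 1.76 (1.61 to 1.92) at day 2, 2.40 (2.25 to 2.55) at day 4 and 5.71 at day 8. The miR-322 cluster went from a summed ratio of 0.925 (day 2) through 0.511 (day 4) to 0.276 (day 8), with 2 of 8 members called at day 4 and 7 of 8 at day 8. The let-7 list of both arms had a median log2 ratio of 0.31 at day 2, 0.03 at day 4 and -0.47 at day 8. The miR-129 list, low at day 2 and day 8, was near 0 at day 4, with medians of -1.31, -0.03 and -1.59 in that order. miR-1249-3p had log2 ratios of -0.71 at day 4 and -2.54 at day 8. miR-6239 went from 0.32 to -1.55 and miR-1306-5p from 0.20 to -1.32.

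Others were smaller at day 8. The 3p miRNAs of the miR-466, miR-669, miR-467 and miR-297 families had a summed ratio of 0.142 (0.128 to 0.158) at day 4, with 16 of 19 called there too, against 0.322 at day 8, and of 1.04 in the day 2 pair. miR-7a-5p had log2 ratios of 1.51 at day 4 and 0.06 at day 8, and miR-296-5p 1.54 and -0.18. No test of these differences between days was possible with 1 library per condition.

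Fibroblast and mesenchyme markers had by far the most reads among the cell type markers looked at. All 8 were measured, with 75506 reads (166089 CPM) in the vehicle and 434537 (360750 CPM) in the TGFβ library. Of them miR-21a-5p, miR-199a-5p and miR-214-3p were called higher. Not called were miR-199a-3p, miR-143-3p, miR-145a-5p, miR-125b-5p and miR-152-3p. The fewest reads were those of miR-152-3p, 539 and 725, or 1186 and 602 CPM. The 4 nerve markers summed to 399 and 1207 reads (878 and 1002 CPM), all but 5 of them miR-9-5p and miR-128-3p, with miR-124-3p at 0 in both. The 6 striated muscle markers summed to 7 and 158 reads (15.4 and 131 CPM), nearly all miR-206-3p. Of 4 leukocyte markers none had a read with vehicle and the sum with TGFβ was 3 reads, miR-142-3p being at 0 in both. Red cell markers miR-451a and miR-144-3p were at 0 in both. The 7 epithelial markers summed to 7 and 26 reads (15.4 and 21.6 CPM), with miR-141-3p and miR-429-3p at 0. Endothelial miR-126 summed to 7 and 13 reads (15.4 and 10.8 CPM). In cultures measured as bulk, fewer cells of a kind and less RNA per cell cannot be told apart.

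Among miRNAs with a sequence, the median GC content was higher for those called lower than for the others. Across the 277 miRNAs with a sequence the Spearman correlation of GC content with the log2 ratio was -0.06, and the median GC content was 50% for higher, 56.5% for lower and 50% for uncalled miRNAs. Of the 60 with at least 60% GC, 10 were higher and 19 lower, with a median log2 ratio of -0.20. Of all 277 with a sequence, 59 were higher and 51 lower. The part of GC content in the ratios was not tested. Some measured miRNAs lie within other small RNAs by annotation, such as both arms of miR-677, called higher, and miR-3068-3p, called lower, in small nucleolar RNAs, so their reads may not all be mature miRNA. Levels just inside the 10 CPM limit were 10.1 CPM for miR-26b-3p, 10.2 for let-7c-1-3p and 10.2 for miR-188-5p, and just outside it 9.94 for miR-669d-5p, 9.55 for miR-700-5p and 9.53 for miR-132-5p.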

How the data were processed

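Small RNA reads of 6 libraries (vehicle and TGFβ at days 2, 4 and 8, 1 library each) were used as the authors deposited them, as whole-number counts per mature miRNA; edgeR 3.9 and mm10 are named in the submitters' processing notes, and the aligner is not given in the sources used here. A second deposited table holds the authors' RPM (reads scaled to a common library total) per precursor, and another the authors' linear ratio per gene for day 8 messenger RNA. Day 8 counts ranged from 414943 to 1387785 per library. TMM factors (edgeR 4.0.16, R 4.3.3) were taken over the 6 libraries after edgeR's expression filter (309 miRNAs) and ranged from 0.839 to 1.17. CPM, log2 ratios with a prior count of 2, and exact binomial 95% intervals of each ratio (scipy 1.17.1) followed. A mean of 10 CPM was required. The intervals were run on simulated counts drawn with counting error alone, which is the error they assume. That run does not bear on differences between cultures. With 1 library per group no p-value was computed.

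The members and lists were chosen with earlier results of these data known. Named miRNAs are the 15 highest and 15 lowest ratios with at least 50 reads in 1 library, the 15 most abundant, the 8 largest gains and losses in CPM, list and seed members, the 8 arm pairs most apart, and the 8 most above or below day 4; others are said to be chosen after their values were seen, or illustrate a count. Alternatives were other scalings (DESeq2 1.42.0 size factors among them), filters, priors and folds.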

Additional observations from a re-analysis of the deposited data

Results flagged for a closer look

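For 4 miRNAs the day 8 and day 2 pairs were called in opposite directions; the difference was not tested, since each pair is 1 library per condition. miR-199b-5p had a log2 ratio of 1.57 at day 8 and -1.17 at day 2, and miR-326-3p 1.34 and -2.24. miR-10b-5p had -1.23 at day 8, on 9 and 7 reads, and 3.82 at day 2, and miR-1981-3p had -1.12 and 2.32. No miRNA was called in opposite directions at days 8 and 4.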

How the results depend on the processing

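The main counts were 72 higher and 77 lower, with a median log2 ratio of 0.01. The median moved to -0.33 on total-count scaling, 0.12 with no filter on low counts and 0.11 with TMM over all listed miRNAs, an alternative chosen after seeing the data. A minimum of 50 CPM left 47 lower, and a fold of 4 gave 21 higher and 18 lower. The other alternatives run (DESeq2 size factors, TMM within day 8, priors of 0.5 and 5, a fold of 1.5, the second deposited table, and, chosen after seeing the data, leaving out miRNAs numbered 1000 and above) kept both counts within 1.5 times. Of the 72 calls 52 held under all 4 other scalings, and of the 77 calls 70. Total-count scaling, the largest change, moved every ratio down, which removes higher calls and hardly lower ones. The 2 counts therefore do not show which calls are firmer. TMM within day 8 gave the same scaled ratios as the main setting apart from the prior count. DESeq2 size factors moved them by 0.006 on the log2 scale, so both could change few calls. The scalings moved ratios by 0.34 at most on the log2 scale. A miRNA, list or seed past 2-fold therefore could not change sign under them, and its unchanged sign is no check. The median difference between arms was 0.66 at 50 CPM against 0.67. No paired analysis was possible because the day 8 groups hold 1 library each; a fit over the 3 days with day as a block would test their mean difference, not that of day 8, and was not run. Depth limits the vehicle library most: 177 of the 361 measured miRNAs had under 50 reads there, against 104 with TGFβ.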

Other observations

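Below the limit of 10 CPM, 253 further miRNAs had reads at day 8. Over all listed miRNAs, 113 had reads in the TGFβ library alone and 33 in the vehicle library alone, in libraries that differ 3.34 times in depth. The highest of the former was miR-700-5p with 23 TGFβ reads. The miRNAs numbered 1000 and above, many of them annotated from sequencing alone, had 67 measured members, 9 higher and 21 lower (19.9% and 21.3% over all measured miRNAs), with a median log2 ratio of -0.48, against 0.01 over all. Among them miR-5117-3p had 169 reads with vehicle and 2398 with TGFβ, a ratio of 5.36 (4.58 to 6.30), and miR-6243 took 3.42% of the vehicle and 4.29% of the TGFβ reads.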
